A study of Sus scrofa with 599 samples.

Results

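The 10 genes described here are thermogenic genes of adipose tissue, chosen by their symbols: PPARGC1A, PRDM16, DIO2, CIDEA, UCP2, UCP3, CKB, GATM, SLC6A8 and ATP2A2. A row was matched for 9 of the 10 among the 21280 protein-coding genes (PCGs) of the expression table, and CIDEA was analysed here only through chromatin. The tissues came from female Bama pigs aged 2 years, with 3 visceral depots named GOM (greater omentum), MAD (mesenteric) and RAD (retroperitoneal), and 1 subcutaneous depot named ULB (upper layer of backfat). Pigs of the normal condition (NC) ate a normal diet, and pigs of the weight-gain group (WG) ate a high-fat diet over 22 weeks. The weight-loss group (WL) was drawn at random from the high-fat pigs, which then received 10% of the normal caloric intake over 12 weeks, so WL shares its feeding history with WG. RNA-seq samples in the order NC, WG and WL numbered 9, 45 and 10 in GOM, 12, 36 and 10 in MAD, 12, 39 and 10 in RAD, and 5, 38 and 10 in ULB, 236 in all. By the study's methods the 4 depots were taken from each pig, so samples of different depots can share a pig, and the tests between depots treat them as independent unless the replicate block is named. The study describes separate pigs in the 3 diet groups, with each depot taken from each pig, so samples of a group came from separate pigs. The labels themselves name no pig. P-values measure the spread between these samples.

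Brown and beige adipocytes burn fuel for heat, and in most mammals they do so through UCP1, a carrier that lets protons leak back across the inner mitochondrial membrane. Pigs carry only a broken UCP1 gene, and no row of UCP1 was matched in the expression table. Several other routes to heat are known in adipocytes: a futile cycle in which creatine is phosphorylated and dephosphorylated, a calcium cycle in which a pump of the endoplasmic reticulum spends ATP against a leak, and the mild proton leak ascribed to the UCP1 relatives UCP2 and UCP3. PPARGC1A and PRDM16 are transcriptional coregulators of the thermogenic programme, and DIO2 is the deiodinase that makes active thyroid hormone inside the cell.

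Total estimated counts per library ran from 3337098 to 22939420 with a median of 16791659. PCGs took 65.6% to 96.9% of the TPM of a library, and under 90% in 48 of the 236, among them 7 of the 9 NC GOM and 8 of the 10 WL GOM libraries. All 8 adipocyte markers (ADIPOQ, PLIN1, PLIN4, LIPE, FABP4, CIDEC, LEP and CFD) were expressed in each of the 12 groups, with a summed median of 8095 TPM in NC GOM, the lowest, to 23729 TPM in WL RAD, the highest. Markers of another tissue stood over 5 times above the group median, and above 50 TPM in sum, in 43 libraries. Several of the extreme values below come from these: NC MAD replicate 1 (smooth muscle), WG MAD replicate 39 (kidney), NC RAD replicate 7 and WL GOM replicate 10 (liver) and WL MAD replicates 1, 6 and 7 (lymphocytes). Each call of the 9 genes that the removal of the 43 libraries ended is named beside its value, and the part of other tissues in the levels was not tested beyond that. In bulk tissue, fewer cells of a type and less RNA per cell cannot be told apart.

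Expression was given in TPM, a share of all transcripts that is scaled by transcript length, so levels can be set beside each other between genes. Over the 236 samples UCP3 was the most abundant of the 9 genes with a median of 83.5 TPM, followed by ATP2A2 (48.3 TPM), CKB (48.3 TPM), GATM (22.6 TPM), SLC6A8 (10.6 TPM) and UCP2 (6.72 TPM). The 3 regulators were scarce, with medians of 1.5 TPM for DIO2, 1.4 TPM for PPARGC1A and 0.656 TPM for PRDM16. PRDM16 passed the detection limit of 0.5 TPM in 80% of samples in only 3 of the 12 groups, against 10 groups for PPARGC1A, 11 for DIO2 and all 12 for the other 6 genes. Its level was thus near that limit.

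**Figure D1:**
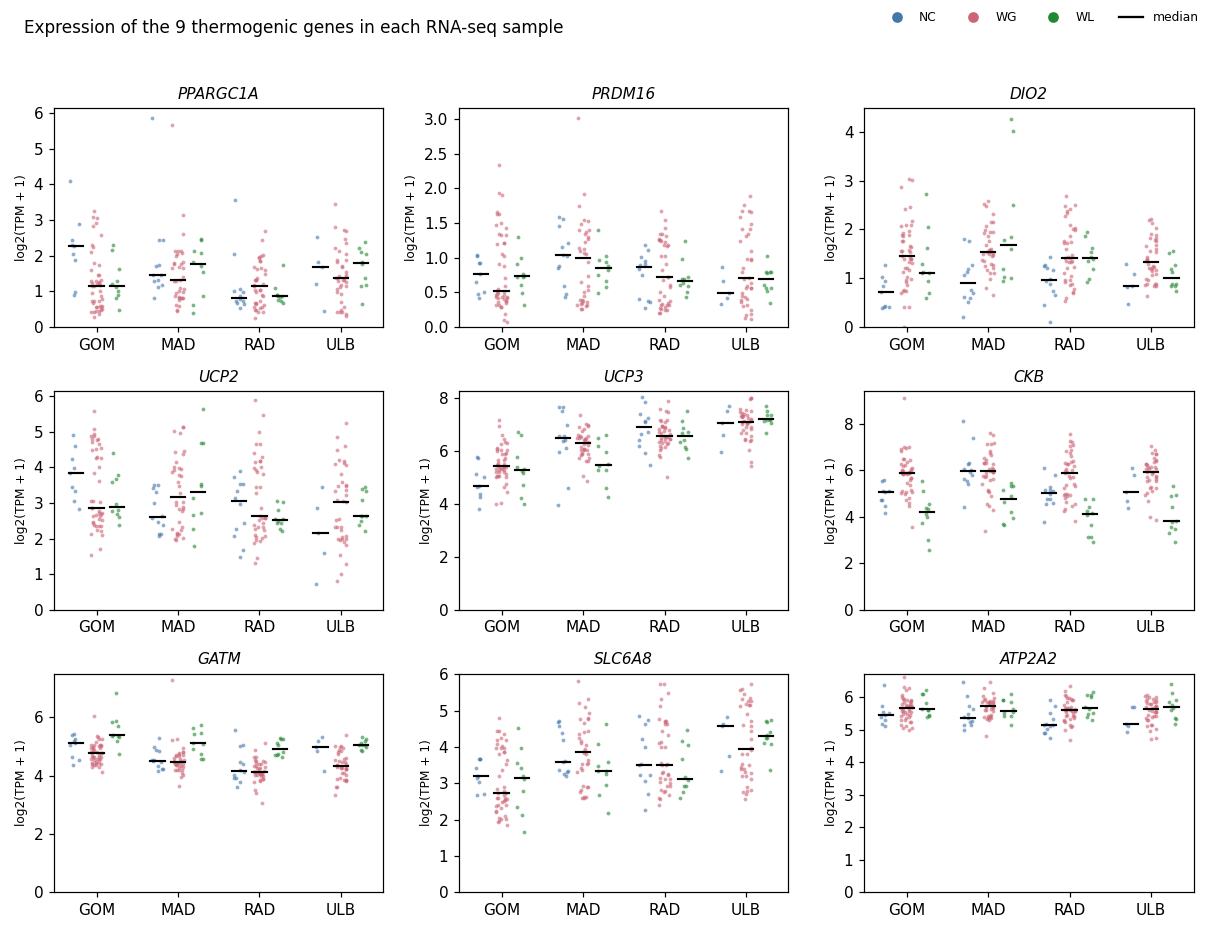
Level of each of the 9 genes in every RNA-seq sample, as log2(TPM + 1), by depot and coloured by diet, with a line at the group median. The WL points of CKB lie low in all 4 depots, UCP3 rises from GOM to ULB, and UCP2, SLC6A8 and PRDM16 spread widely within WG.

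Changes between diets were tested in each depot by edgeR's quasi-likelihood test, and a call needed a Benjamini-Hochberg adjusted p below 0.05 over all genes tested and a fold change above 1.5. From NC to WG, 4 of the 32 gene-by-depot tests were called higher and 2 lower, 12.5% and 6.25%, where 6.37% and 7.89% of all tests were called in these directions. From WG to WL, 4 of 35 were called higher (11.4%, background 4.08%) and 5 lower (14.3%, background 5.24%). From NC to WL, 2 of 35 were called higher (5.71%, background 11.6%) and 9 lower (25.7%, background 16.2%). The 3 comparisons share samples, so their counts are not independent. CKB made 8 of the 14 calls in the lower direction after weight loss, and GATM and DIO2 made all 6 of the calls in the higher direction there. In every diet comparison the ranges of the groups overlapped for each gene.

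**Figure D2:**
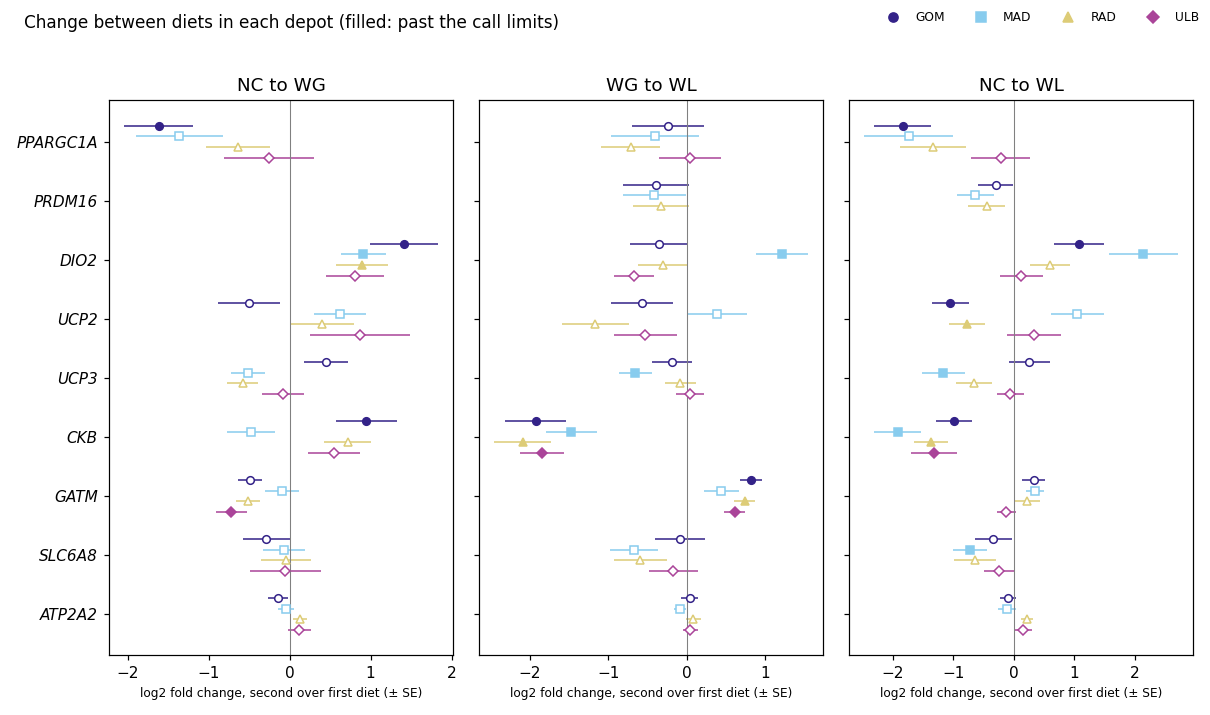
Log2 fold change of the 9 genes between diets with its SE, second diet over first, in the 4 depots; filled symbols passed both limits. CKB lies at -1.47 to -2.09 from WG to WL in all 4 depots, while GATM lies above 0 there and ATP2A2 stays within 0.22 of 0.

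CKB, the brain-type creatine kinase that transfers phosphate between ATP and creatine and is the kinase of the futile creatine cycle, fell most broadly. It was lower in WL than in WG in all 4 depots, by 2.77 to 4.25 times, and lower in WL than in NC in all 4, by 1.98 to 3.79 times. In GOM, CKB ran from 17.1 to 46.4 TPM (median 32) in NC, from 10.7 to 543 TPM (median 57.5) in WG and from 4.99 to 45 TPM (median 17.7) in WL. In MAD the values were 20.6 to 275 TPM (median 61.5) in NC, 9.47 to 190 TPM (median 61.0) in WG and 11.6 to 43.2 TPM (median 26.4) in WL. RAD samples held 12.7 to 68.3 TPM (median 31.7) in NC, 13 to 185 TPM (median 57.4) in WG and 6.47 to 26.3 TPM (median 16.4) in WL. WL had the lowest median in each of these depots, and the ranges overlapped. In GOM the highest WL sample (45 TPM) came near the highest NC sample (46.4 TPM). In MAD and RAD the highest WL sample stayed below the medians of NC and WG. In ULB the 5 NC samples held 32.1, 19.7, 54.7, 24.3 and 67.6 TPM, WG ran from 13.6 to 131 TPM (median 60.2) and WL from 6.56 to 39.3 TPM (median 12.9). The WL median of ULB was the lowest of the 12 group medians of CKB.

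From WG to WL the log2 fold change of CKB was -1.92 ± 0.39 (SE) in GOM (adjusted p = 0.000702), -1.47 ± 0.32 in MAD (adjusted p = 0.000676), -2.09 ± 0.36 in RAD (adjusted p = 7.75e-05) and -1.84 ± 0.28 in ULB (adjusted p = 4.32e-06). The change did not differ detectably between depots (interaction, adjusted p = 0.992). Without the 43 libraries the 4 values were -1.93, -1.66, -2.56 and -2.38, and all stayed called. From NC to WL the changes were -0.99 ± 0.31 in GOM (adjusted p = 0.00941), -1.92 ± 0.39 in MAD (adjusted p = 0.000549), -1.37 ± 0.27 in RAD (adjusted p = 0.000484) and -1.32 ± 0.38 in ULB (adjusted p = 0.0235). In ULB the last call was lost when NC replicate 12, the highest of the 5, was left out.

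From NC to WG CKB was called higher only in GOM, by 0.95 ± 0.38 on the log2 scale (adjusted p = 0.0421). MAD differed by -0.48 ± 0.29 (adjusted p = 0.250), RAD by 0.72 ± 0.29 (adjusted p = 0.0514) and ULB by 0.55 ± 0.32 (adjusted p = 0.426). This change did differ between depots, and CKB alone of the 9 genes passed that test as fitted without a block (adjusted p = 0.0411, where 8.8% of all genes passed), with a difference of MAD minus GOM of -1.42 on the log2 scale. With the replicate block, under which 5206 of 15068 genes passed, UCP2 passed as well (adjusted p = 0.000586; CKB 0.00363), and with the share of TPM on PCGs as a covariate, under which 2909 passed, UCP3 did (adjusted p = 0.0250; CKB 0.00929). The 543 TPM in GOM belongs to WG replicate 35, the library with the fewest counts, and the 275 TPM in MAD to NC replicate 1, the library rich in smooth muscle. With WG replicate 35 left out, the change in GOM was 0.68 (adjusted p = 0.0232) and stayed called. Without the 43 libraries the call in GOM was lost (0.94, adjusted p = 0.0519), RAD was called (0.93, adjusted p = 0.0221), and the difference between depots no longer passed (adjusted p = 0.239). Between depots CKB was called in NC, with MAD above GOM (1.42 ± 0.38, adjusted p = 0.00985; 1.14, adjusted p = 0.0130, without the 43 libraries) and above RAD (RAD minus MAD -1.29 ± 0.34, adjusted p = 0.0355; -1.01, adjusted p = 0.162, without them), and in WL RAD against MAD passed only with the replicate block (-0.77, adjusted p = 0.0436).

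CKB lies on an unplaced scaffold of Sscrofa11.1 at positions 2070843 to 2074141 on the minus strand. Its promoter, 250 bases before to 50 after the RefSeq start, is shown because CKB made the broadest change. Capitals mark, on either strand, the TATA box as TATAAA, the CCAAT box, the cAMP response core as TGACG and the nuclear receptor core as AGGTCA.
CKB promoter: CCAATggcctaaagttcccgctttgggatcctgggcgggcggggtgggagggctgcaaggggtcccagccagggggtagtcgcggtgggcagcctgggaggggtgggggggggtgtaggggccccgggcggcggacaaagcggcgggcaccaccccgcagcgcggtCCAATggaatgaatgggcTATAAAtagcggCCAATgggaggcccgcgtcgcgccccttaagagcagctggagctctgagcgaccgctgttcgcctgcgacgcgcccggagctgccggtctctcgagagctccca
It held 1 TATAAA and 3 CCAAT, and its GC content was 70.0% against a median of 58.0% over 20664 promoters, of which 11.6% held TATAAA and 35.7% CCAAT.

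GATM, the amidinotransferase that makes the creatine precursor guanidinoacetate, moved against CKB. It was higher in WL than in WG in GOM, RAD and ULB, by 1.52 to 1.76 times, and lower in WG than in NC in ULB. In GOM, GATM ran from 19.8 to 42.5 TPM (median 34.1) in NC, from 16.4 to 65.1 TPM (median 26.3) in WG and from 25.9 to 114 TPM (median 40.9) in WL. RAD samples held 11.3 to 46.9 TPM (median 17) in NC, 7.45 to 33.9 TPM (median 16.4) in WG and 24 to 37.9 TPM (median 29.5) in WL. In both depots WL stood highest, and the ranges overlapped. In ULB the NC samples held 30.4, 35.3, 16.8, 27.9 and 39.2 TPM, WG ran from 9.18 to 40.7 TPM (median 19) and WL from 27.9 to 39.3 TPM (median 32.2). MAD values were 16.7 to 38.2 TPM (median 21.9) in NC, 11.4 to 155 TPM (median 21) in WG and 22.5 to 52.6 TPM (median 33.6) in WL. The 155 TPM in MAD is that of the library rich in kidney markers, and the 114 TPM in GOM that of a library rich in liver markers, both organs that make GATM.

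From WG to WL the log2 fold change of GATM was 0.81 ± 0.14 in GOM (adjusted p = 7.68e-05), 0.73 ± 0.13 in RAD (adjusted p = 0.000104) and 0.61 ± 0.13 in ULB (adjusted p = 0.000841), against 0.44 ± 0.22 in MAD (adjusted p = 0.119). With the 43 libraries left out GOM stood at 0.59 (adjusted p = 0.00481), and MAD was called as well (0.71, adjusted p = 0.00434). From NC to WG GATM changed by -0.49 in GOM (adjusted p = 0.0070) and by -0.52 in RAD (adjusted p = 0.00581), both under the fold limit, and in ULB the change was -0.72 ± 0.19 (adjusted p = 0.0246). That ULB call was lost under 9 of 16 alternatives, among them those that left out NC replicate 2, 5, 9 or 12. Between NC and WL GATM was not called in any depot, with changes of 0.33, 0.36, 0.22 and -0.12 in GOM, MAD, RAD and ULB (adjusted p = 0.153, 0.050004, 0.392 and 0.634). Between depots GATM was called in WL, below GOM in RAD (-0.66 ± 0.18, adjusted p = 0.0109) and in ULB (-0.59 ± 0.17, adjusted p = 0.0132), and without the 43 libraries neither passed both limits (-0.49, adjusted p = 0.00792; -0.30, adjusted p = 0.0578). In WG, RAD was below GOM by less than the fold limit (-0.56, adjusted p = 2.38e-07). Without the 43 libraries RAD was called below GOM in WG (-0.65, adjusted p = 1.18e-07) and in NC (-0.81, adjusted p = 0.000764).

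GATM lies on chromosome 1 of Sscrofa11.1 at 126361968 to 126378705 on the plus strand, and its promoter (chr1:126361718-126362017, plus strand, same marks) is shown beside that of CKB because GATM and CKB were called in opposite directions from WG to WL.
GATM promoter: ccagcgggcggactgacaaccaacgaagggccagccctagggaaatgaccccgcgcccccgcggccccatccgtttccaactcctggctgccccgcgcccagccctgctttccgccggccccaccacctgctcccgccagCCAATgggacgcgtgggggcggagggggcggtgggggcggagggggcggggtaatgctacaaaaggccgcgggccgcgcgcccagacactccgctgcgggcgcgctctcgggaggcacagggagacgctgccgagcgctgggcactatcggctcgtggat
It held 1 CCAAT, no TATAAA and 73.7% GC.

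SLC6A8, the creatine transporter, differed mainly between depots. In WG it ran from 2.65 to 26.8 TPM (median 5.70) in GOM, 4.99 to 55.2 TPM (median 13.6) in MAD, 4.28 to 51.9 TPM (median 10.3) in RAD and 4.93 to 51.7 TPM (median 14.45) in ULB. GOM was the low depot in WG, with overlap, and SLC6A8 was higher by 0.91 ± 0.20 in MAD (adjusted p = 0.000221), 0.91 ± 0.20 in RAD (adjusted p = 0.000165) and 1.29 ± 0.20 in ULB (adjusted p = 8.13e-08) on the log2 scale. In NC the 5 ULB samples held 9.17, 23.9, 12.5, 22.9 and 27.6 TPM against 5.44 to 11.8 TPM (median 8.13) in GOM, a difference of 1.06 ± 0.26 (adjusted p = 0.00584). NC MAD, at 8.18 to 25.1 TPM (median 11.09), was called above NC GOM (0.69 ± 0.24, adjusted p = 0.0378), a call lost without the 43 libraries (0.58, adjusted p = 0.0817). WL ULB, at 9.22 to 25.5 TPM (median 18.6), was above WL GOM (2.16 to 21.8 TPM, median 7.91) by 1.16 ± 0.30 (adjusted p = 0.0050) and above WL MAD (3.52 to 24 TPM, median 9.09) by 0.86 ± 0.27 (adjusted p = 0.0265). Between diets only MAD was called, lower in WL than in NC by 1.65 times (-0.72 ± 0.29, adjusted p = 0.0419), a call lost under 7 of 11 alternatives. Without the 43 libraries it was lost (-0.76, adjusted p = 0.0732) while RAD was called (-1.32, adjusted p = 0.00511; WG to WL -1.18, adjusted p = 0.0486).

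The other 4 matched genes of the creatine cycle list (ALPL, CKM, CKMT2 and GAMT) were tested in 11 to 13 gene-by-depot pairs per comparison. From NC to WL 2 of 13 were called higher and 7 lower, from WG to WL 0 of 11 higher and 3 lower, and from NC to WG 1 of 13 higher and 2 lower. The shares were 15.4% and 53.8% from NC to WL (all genes 11.6% and 16.2%), 0% and 27.3% from WG to WL (4.08% and 5.24%) and 7.69% and 15.4% from NC to WG (6.37% and 7.89%). With the 43 libraries left out the lower calls from WG to WL were 2 of 12, as the call of CKM in MAD was lost (-0.62, adjusted p = 0.308). ALPL, the phosphatase ascribed to the breakdown of phosphocreatine, was lower in WL than in WG in GOM (-1.58 ± 0.47, adjusted p = 0.0250) and in MAD (-2.06 ± 0.52, adjusted p = 0.00263). CKM, the muscle creatine kinase, was lower in WL than in NC in MAD (-3.19 ± 0.65, adjusted p = 0.000535) and ULB (-1.61 ± 0.41, adjusted p = 0.0124), and it is also on the skeletal muscle marker list. GAMT, which completes creatine synthesis from the product of GATM, was higher in WG than in NC in GOM (0.99 ± 0.26, adjusted p = 0.00270) and higher in WL than in NC in GOM (1.09 ± 0.19, adjusted p = 6.71e-05). The median log2 fold change of the list was -0.41 to -1.03 from NC to WL in the 4 depots, against -0.03 to -0.00 over all genes tested.

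UCP3, the UCP1 relative best known from muscle, was the most abundant of the 9 genes and the one with the strongest order of depots. In NC, GOM held 12.8 to 53.4 TPM (median 24.4), MAD 14.4 to 202 TPM (median 88.2), RAD 43 to 263 TPM (median 119), and the 5 ULB samples 61.4, 95.6, 207, 130 and 178 TPM. Every NC ULB sample was above every NC GOM sample, while the other pairs overlapped. In WG the values were 15 to 142 TPM (median 42) in GOM, 28.3 to 162 TPM (median 76.9) in MAD, 30.9 to 232 TPM (median 92.2) in RAD and 42.5 to 255 TPM (median 135) in ULB. In WL they were 15 to 102.3 TPM (median 37.4) in GOM, 18.2 to 96.2 TPM (median 42.8) in MAD, 51.4 to 180 TPM (median 92.5) in RAD and 100.4 to 204 TPM (median 144) in ULB. The medians thus rose in the order GOM, MAD, RAD and ULB in each diet, with an NC ULB median of 130 TPM over 5 samples. The 10 WL ULB samples lay above all 10 WL MAD samples.

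Of the 48 gene-by-depot-pair tests in NC 10 were called, where 13% of all tests were called. Of 47 in WG 8 were called (background 10.8%), and of 54 in WL 13 (background 10.1%). UCP3 made 11 of these 31 calls. Relative to GOM, UCP3 was higher in NC by 1.64 ± 0.38 in MAD (adjusted p = 0.0036), 2.13 ± 0.34 in RAD (adjusted p = 6.62e-05) and 2.05 ± 0.34 in ULB (adjusted p = 0.000283). In WG the values were 0.70 ± 0.14 (adjusted p = 8.11e-05), 1.12 ± 0.14 (adjusted p = 6.17e-11) and 1.53 ± 0.14 (adjusted p = 4.3e-16). In WL they were 0.24 ± 0.34 for MAD, which was not called (adjusted p = 0.792), 1.21 ± 0.33 for RAD (adjusted p = 0.0116) and 1.73 ± 0.28 for ULB (adjusted p = 5.99e-05). Neighbours in the order differed less: MAD and RAD in NC by 0.48 ± 0.34 (adjusted p = 0.663), RAD and ULB in NC by -0.08 ± 0.37 (adjusted p = 0.948), MAD and RAD in WG by 0.42 ± 0.12 (adjusted p = 0.00906, under the fold limit) and RAD and ULB in WL by 0.53 ± 0.22 (adjusted p = 0.211). The difference of RAD and ULB in WL was called without the 43 libraries (0.89, adjusted p = 0.0119) and with limma at either pseudocount. ULB was called above MAD in WG (0.83 ± 0.12, adjusted p = 5.03e-08; 0.81, adjusted p = 7.76e-06, with the replicate number as a block) and in WL (1.51 ± 0.24, adjusted p = 0.000169).

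Between MAD and RAD in WL, where replicate numbers pair the samples, UCP3 was higher in RAD by 0.98 ± 0.30 (adjusted p = 0.0402; 0.99, adjusted p = 0.00316, with the block), and this call was lost without the 43 libraries (0.58, adjusted p = 0.273). The adipocyte markers had summed medians in GOM, MAD, RAD and ULB of 8095, 16510, 18606 and 14584 TPM in NC, 15078, 18778, 22475 and 15493 TPM in WG and 14014, 16366, 23729 and 22972 TPM in WL. Their sum was lowest in GOM and highest in RAD in each diet, unlike UCP3 with its highest median in ULB in each diet. The part of this sum in the order of UCP3 was not tested. Between diets UCP3 was called only in MAD, lower in WL than in WG (-0.66 ± 0.21, adjusted p = 0.0138) and than in NC (-1.16 ± 0.35, adjusted p = 0.0103). The first of these was lost without the 43 libraries (-0.58, adjusted p = 0.127) and the second was not (-1.06, adjusted p = 0.0388). The second was lost under 5 of the 11 alternatives run, limma at either pseudocount, the replicate block, the share of TPM on PCGs as a covariate and the removal of libraries under 90% on PCGs, and the covariate and the last removal ended the first as well. In RAD, UCP3 was called lower in WL than in NC without the 43 libraries (-0.78, adjusted p = 0.0470).

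UCP2 and UCP3 are neighbours on the minus strand of chromosome 9 of Sscrofa11.1, UCP3 at 8378023 to 8389452 and UCP2 at 8358559 to 8364552. Their promoters (chr9:8389403-8389702 and chr9:8364503-8364802, minus strand, same marks) are shown because in NC the GOM median was the lowest of the 4 depots for UCP3 and the highest for UCP2.
UCP3 promoter: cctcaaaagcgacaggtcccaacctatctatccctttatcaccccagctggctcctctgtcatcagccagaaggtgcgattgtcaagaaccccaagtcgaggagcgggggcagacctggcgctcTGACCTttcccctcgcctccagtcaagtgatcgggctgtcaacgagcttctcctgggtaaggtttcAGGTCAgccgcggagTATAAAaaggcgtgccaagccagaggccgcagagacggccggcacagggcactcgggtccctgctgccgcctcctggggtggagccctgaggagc
UCP2 promoter: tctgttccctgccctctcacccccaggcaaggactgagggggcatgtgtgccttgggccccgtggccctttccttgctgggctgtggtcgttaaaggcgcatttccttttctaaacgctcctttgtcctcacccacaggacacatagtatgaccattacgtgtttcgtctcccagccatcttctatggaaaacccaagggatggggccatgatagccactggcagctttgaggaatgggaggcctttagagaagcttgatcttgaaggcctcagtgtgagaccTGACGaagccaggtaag
The UCP3 window held 1 TATAAA and 2 AGGTCA, the core site of many nuclear receptors. The UCP2 window held 1 TGACG, the letters of the core site of cAMP response factors. That TGACG lies after the RefSeq start, in the transcribed part of the window. Whether the UCP2 window is the promoter used in these depots, and whether any factor binds there, was not tested. Over all promoters 14.2% held AGGTCA and 23.7% TGACG.

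UCP2, the broadly expressed relative of UCP1 that is abundant in immune cells, was highest in GOM on the normal diet. In NC, GOM held 6.13 to 29.2 TPM (median 13.3), MAD 3.20 to 10.4 TPM (median 5.09), RAD 1.80 to 13.9 TPM (median 7.33), and the ULB samples 0.639, 3.48, 2.01, 6.21 and 10.0 TPM. The other depots lay below GOM with overlap, by -1.26 ± 0.30 in MAD (adjusted p = 0.00424), -1.01 ± 0.34 in RAD (adjusted p = 0.0311) and -1.81 ± 0.52 in ULB (adjusted p = 0.0150) on the log2 scale. Macrophage markers summed to a median of 1298 TPM in NC GOM against 533 TPM in NC MAD, 682 TPM in NC RAD and 772 TPM in NC ULB. All 10 of them were expressed in NC GOM, and 9 stood above a median of 0.5 TPM in each other NC depot. In GOM, MAD, RAD and ULB their summed medians were 1752, 1219, 1213 and 1167 TPM in WG. In WL they were 1743, 1612, 1148 and 1420 TPM. The part of macrophages in the UCP2 differences between depots or diets was not tested. In WG no depot pair of UCP2 was called, with differences from -0.42 to 0.01 and adjusted p from 0.197 to 0.989. Between diets UCP2 was lower in WL than in NC in GOM (4.25 to 20.2 TPM in WL, median 6.40; -1.05 ± 0.31, adjusted p = 0.00657) and in RAD (3.67 to 7.25 TPM in WL, median 4.74; -0.77 ± 0.30, adjusted p = 0.0387). The call in GOM was lost with limma at either pseudocount, and that in RAD under 5 of 11 alternatives (limma at either pseudocount, no filter on low genes, the replicate block and the removal of libraries under 90% on PCGs).

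In MAD the change of UCP2 from NC to WL was 1.05 ± 0.43 (adjusted p = 0.050024) and turned to -0.34 (adjusted p = 0.536) without the 43 libraries. The WL MAD samples ran from 2.49 to 48.9 TPM (median 9.0), and their highest 3 values, 48.9, 24.6 and 24.6 TPM, came from the 3 libraries with 493.1 to 1262 TPM of lymphocyte markers against a group median of 73.0 TPM. UCP2 was called above RAD in both other visceral depots of WL, GOM (RAD minus GOM -0.74 ± 0.24, adjusted p = 0.0370, lost under 5 of 11 alternatives) and MAD (RAD minus MAD -1.58 ± 0.45, adjusted p = 0.0301). The second was lost with the replicate block (-1.0, adjusted p = 0.0764) and without the 43 libraries (-0.40, adjusted p = 0.514).

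The other 5 matched genes of the proton leak list, inner-membrane carriers other than the members, were called lower in 3 of 20 tests from NC to WL (15%, against 16.2% of all tests) and in none of the 20 of each other diet comparison. SLC25A27, known as UCP4, was lower in WL than in NC in GOM (-0.61 ± 0.10, adjusted p = 2.13e-05) and MAD (-0.73 ± 0.16, adjusted p = 0.000833; -0.54, under the fold limit, without the 43 libraries), and SLC25A6, an ADP/ATP carrier, in ULB (-0.60 ± 0.14, adjusted p = 0.00861). The list's median changes over the 12 diet comparisons were between -0.41 and 0.07.

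Within WG the levels of UCP2, SLC6A8 and PRDM16 fell over a wide range in every depot, 1.5 to 58.5 TPM (median 5.20) for UCP2 in RAD and 1.91 to 47.4 TPM (median 6.32) in GOM, and the same replicate numbers were high in different depots. Between samples with the same number in 2 depots of WG, the correlation of UCP2 was 0.766 to 0.895 over the 6 depot pairs (median 0.850, 30 to 39 samples each, log2(TPM + 1)). For SLC6A8 it was 0.807 to 0.897 (median 0.855) and for PRDM16 0.586 to 0.817 (median 0.725). CKB (median 0.625) and DIO2 (0.591) followed, and PPARGC1A (0.0987) and GATM (0.109) were lowest. In WL the median was 0.00583 for UCP2, 0.628 for SLC6A8 and 0.0557 for PRDM16 over 10 samples, and in NC, over 3 depot pairs of 9 to 12 samples, UCP3 had the highest (0.798). The labels do not say that a number is a pig.

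UCP2, PRDM16 and SLC6A8 varied together across all 236 samples, with Pearson r of 0.743 between UCP2 and PRDM16, 0.679 between PRDM16 and SLC6A8 and 0.598 between UCP2 and SLC6A8 (0.781 for the last pair within groups). Several measures moved with them in the 158 WG samples after depot means were removed. The adipocyte marker sum went down as they rose (r = -0.614 for PRDM16, -0.603 for UCP2 and -0.563 for SLC6A8), and the endothelial sum went up (0.498, 0.453 and 0.424). A score of GC-rich against GC-poor genes, the difference of the medians of 1058 genes each, also went up with them (0.504 for PRDM16, 0.452 for UCP2, 0.288 for SLC6A8). The exons of these 3 genes hold 63.8%, 62.2% and 61.9% GC. UCP3, at 60.2% GC, had r of 0.327 with the score, CKB (64.1%) 0.488 and ATP2A2 (45.03%) 0.462. The part of cell makeup and GC content in this spread was not tested.

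**Figure D3:**
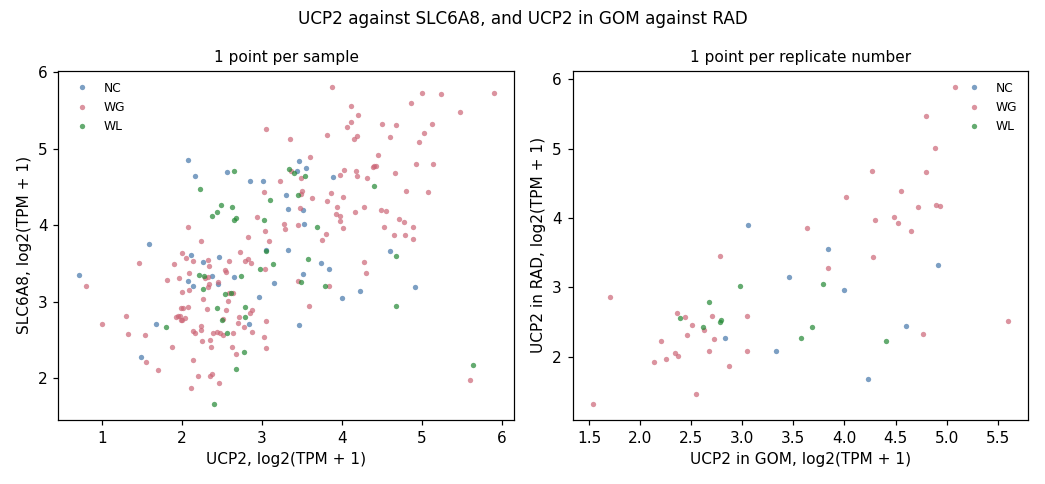
Left, UCP2 against SLC6A8 in the 236 samples, and right, UCP2 in GOM against UCP2 in RAD for samples with the same replicate number, as log2(TPM + 1), coloured by diet. WG points spread along the diagonal in both panels (r = 0.778 over 39 WG numbers on the right), and WL points stay in the lower part of the right panel.

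DIO2 was called higher on the high-fat diet than on the normal diet in the visceral depots, and its change in ULB had the same sign. In GOM, DIO2 ran from 0.308 to 1.4 TPM (median 0.642) in NC, from 0 to 7.16 TPM (median 1.73) in WG and from 0.501 to 5.65 TPM (median 1.16) in WL. MAD samples held 0.154 to 2.47 TPM (median 0.887) in NC, 0.586 to 4.99 TPM (median 1.91) in WG and 0.916 to 18.3 TPM (median 2.23) in WL. RAD samples held 0.0743 to 1.71 TPM (median 0.943) in NC, 0.456 to 5.47 TPM (median 1.67) in WG and 0.884 to 2.83 TPM (median 1.65) in WL. NC was the low group in each depot, with overlap, and the 0 in GOM is that of WG replicate 35, the library with the fewest counts. In ULB the NC samples held 1.44, 0.383, 1.11, 0.753 and 0.799 TPM, WG 0.550 to 3.66 TPM (median 1.5) and WL 0.671 to 1.95 TPM (median 1.02).

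From NC to WG the log2 fold change of DIO2 was 1.41 ± 0.42 in GOM (adjusted p = 0.0066), 0.91 ± 0.28 in MAD (adjusted p = 0.0184), 0.89 ± 0.33 in RAD (adjusted p = 0.0285) and 0.81 ± 0.36 in ULB (adjusted p = 0.251). This change did not differ detectably between depots (interaction, adjusted p = 0.792). Without the 43 libraries GOM stayed called (1.45, adjusted p = 0.00549), and MAD (0.83, adjusted p = 0.0639) and RAD (0.86, adjusted p = 0.0603) did not. From WG to WL DIO2 was called higher in MAD (1.21 ± 0.33, adjusted p = 0.00484), a change that differed from that of the other depots (interaction, adjusted p = 0.00519, where 6.41% of all genes passed). With the replicate block, under which 2019 of 15068 genes passed, DIO2 stayed (adjusted p = 0.0484) and SLC6A8 passed as well (adjusted p = 0.0304). The highest 3 WL MAD values, 18.3, 15.1 and 4.64 TPM, again came from the lymphocyte-rich replicates 7, 6 and 1. Without the 43 libraries the MAD change was -0.70 (adjusted p = 0.177) and the depots no longer differed (adjusted p = 1.00). From NC to WL DIO2 was called higher in GOM (1.08 ± 0.41, adjusted p = 0.0331) and MAD (2.14 ± 0.57, adjusted p = 0.00446), and neither held without those libraries (0.69, adjusted p = 0.112; 0.12, adjusted p = 0.846). Between depots DIO2 was called once, with ULB below MAD in WL (-2.23 ± 0.57, adjusted p = 0.00811; -0.45, adjusted p = 0.458, without the 43 libraries).

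The other 7 genes of thyroid hormone handling were called higher in 1 of 22 tests and lower in 4 from NC to WG, lower in 7 of 20 from WG to WL and lower in 7 of 22 from NC to WL. The shares called lower were 18.2%, 35% and 31.8%, against 7.89%, 5.24% and 16.2% of all tests, and 4.55% were called higher from NC to WG, against 6.37%. With the 43 libraries left out the lower calls were 4 of 22, 5 of 20 and 6 of 22. THRSP, a thyroid-responsive lipogenic gene, was higher in WG than in NC in GOM (1.51 ± 0.39, adjusted p = 0.00231) and lower in WL than in WG in all 4 depots, by -1.47 ± 0.36 in GOM (adjusted p = 0.00570), -1.43 ± 0.36 in MAD (adjusted p = 0.00221), -0.81 ± 0.26 in RAD (adjusted p = 0.0339) and -1.02 ± 0.29 in ULB (adjusted p = 0.0120). The calls of THRSP in MAD (-1.16, adjusted p = 0.0891) and ULB (-0.84, adjusted p = 0.0624) were lost without the 43 libraries. SLC16A10, a transporter of thyroid hormone and aromatic amino acids, was lower in WL than in NC in MAD (-1.96149 ± 0.26, adjusted p = 1.42e-05) and RAD (-2.09 ± 0.27, adjusted p = 6.21e-06). THRB, a nuclear receptor of the hormone, was lower in WL than in NC in GOM (-0.82 ± 0.15, adjusted p = 0.000109). The list's median change was below 0 in all 12 diet comparisons, from -0.09 to -1.06.

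PPARGC1A, the coactivator that drives mitochondrial biogenesis, was lower after both diets in GOM. In GOM, PPARGC1A ran from 0.864 to 16.3 TPM (median 3.88) in NC, from 0.218 to 8.55 TPM (median 1.24) in WG and from 0.390 to 3.895 TPM (median 1.24) in WL. NC GOM had the highest of the 12 group medians, and the ranges overlapped. The log2 fold change was -1.62 ± 0.42 from NC to WG (adjusted p = 0.00237) and -1.84 ± 0.47 from NC to WL (adjusted p = 0.00261), 3.08 and 3.57 times lower, and -0.24 ± 0.46 from WG to WL (adjusted p = 0.80). Without the 43 libraries the first 2 were -1.83 (adjusted p = 0.000509) and -1.79 (adjusted p = 0.00479). No NC GOM library was among the 43, so this removal cannot test other tissue shared by that whole group. The kidney marker sum had its highest group median in NC GOM, 39.4 TPM, against 21.2 TPM in WG GOM. In the WG samples PPARGC1A had r of 0.487 with that sum after depot means were removed. The part of kidney tissue in the PPARGC1A changes was not tested. PCGs took a median of 79.0% of TPM in NC GOM, 93.1% in WG GOM and 87.5% in WL GOM, and with this share as a covariate the changes were -2.37 (adjusted p = 0.00472) and -1.75 (adjusted p = 0.00546).

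In MAD the values were 0.755 to 57.1 TPM (median 1.75) in NC, 0.372 to 50 TPM (median 1.47) in WG and 0.324 to 4.53 TPM (median 2.44) in WL. In RAD they were 0.455 to 10.9 TPM (median 0.768) in NC, 0.185 to 5.54 TPM (median 1.22) in WG and 0.602 to 2.32 TPM (median 0.815) in WL. Single samples stood far above their groups here: 57.1 TPM in the library rich in smooth muscle, 50 TPM in that rich in kidney and 10.9 TPM in one rich in liver, of which kidney and liver are known to express PPARGC1A. No PPARGC1A change was called in MAD or RAD, and without these libraries the change from NC to WL in MAD went from -1.74 ± 0.73 (adjusted p = 0.0544) to 0.03 (adjusted p = 0.971). In ULB the NC samples held 1.29, 2.57, 0.355, 4.71 and 2.24 TPM, WG 0.242 to 9.86 TPM (median 1.59) and WL 0.565 to 4.21 TPM (median 2.47), with no call. Between depots RAD was low, below MAD in WG (-1.03 ± 0.32, adjusted p = 0.0170) and in WL (-1.35 ± 0.39, adjusted p = 0.0323; -1.14, adjusted p = 0.0437, with the replicate block) and below ULB in WL (ULB minus RAD 1.28 ± 0.32, adjusted p = 0.0148). Of these the call against ULB stayed without the 43 libraries (1.48, adjusted p = 0.0120) and those against MAD did not (-0.46 and -1.38, adjusted p = 0.347 and 0.193).

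PRDM16, which steers precursors toward the brown lineage, had group medians of 0.410 TPM (NC ULB) to 1.05 TPM (NC MAD). The highest value, 7.06 TPM, was again in the kidney-rich library of WG MAD. It could be tested between diets only against WL in the 3 visceral depots, with changes of -0.64 to -0.30 and adjusted p of 0.0962 to 0.622, and no call was made. ATP2A2, the pump SERCA2 of the calcium cycle, was the steadiest of the 9 genes, with group medians from 34.8 TPM (NC RAD) to 52.3 TPM (WG MAD). Its log2 fold changes between diets lay between -0.15 and 0.22 with SE of 0.08 to 0.15, and their 95% intervals stayed between -0.42 and 0.43. Of the other 10 genes of the calcium list, 3 of 26 tests were called higher and 1 lower from NC to WL (11.5% and 3.85%, against 11.6% and 16.2% of all tests), and 1 higher and none lower in each other diet comparison (3.85%, against 6.37% of all tests from NC to WG and 4.08% from WG to WL). With the 43 libraries left out the counts from NC to WL were 1 and 0. ATP2A3, the SERCA pump of blood cells, was higher in WL than in WG in MAD (1.04 ± 0.21, adjusted p = 0.000268), the depot with the lymphocyte-rich libraries, and no gene of its list was called from WG to WL without the 43 libraries.

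The wider brown and beige list, 31 matched genes other than the members, was called higher in 6 of 92 tests and lower in 13 from NC to WG, in 10 and 10 of 92 from WG to WL and in 11 and 21 of 93 from NC to WL. These were 6.52% and 14.1% of tests from NC to WG (all genes 6.37% and 7.89%), 10.9% each from WG to WL (all genes 4.08% and 5.24%) and 11.8% and 22.6% from NC to WL (all genes 11.6% and 16.2%). Its median log2 fold change per comparison lay between -0.24 and -0.01, against -0.04 to 0.01 over all genes tested. The surface transporter SLC36A2 (PAT2) and the ATP-gated channel P2RX5, both known as surface markers of brown adipocytes, fell furthest. SLC36A2 had medians of 4.14, 2.18 and 0.331 TPM in GOM, 9.11, 2.10 and 0.280 TPM in MAD, 7.67, 2.04 and 0.455 TPM in RAD and 7.12, 3.61 and 0.720 TPM in ULB of NC, WG and WL. From NC to WL it was lower by -4.26 ± 0.47 in GOM (adjusted p = 2.79e-07), -5.94 ± 0.59 in MAD (adjusted p = 7.28e-07), -4.61 ± 0.47 in RAD (adjusted p = 3.12e-07) and -2.29 ± 0.63 in ULB (adjusted p = 0.0184). P2RX5 had WG medians of 13 to 17 TPM and WL medians of 2.09 to 3.39 TPM, and was lower from WG to WL by -2.90 ± 0.38 in GOM (adjusted p = 3.09e-07), -3.12 ± 0.39 in RAD (adjusted p = 1.39e-07) and -3.05 ± 0.39 in ULB (adjusted p = 1.57e-07). In MAD the change was -1.15 ± 0.47 (adjusted p = 0.0542), and -2.77 (adjusted p = 0.00237) without the 43 libraries. The opposite direction was led by TNFRSF9 in MAD (2.91 ± 0.52 from WG to WL, adjusted p = 5.06e-05), a beige marker that activated T cells also make. With the 43 libraries left out, TNFRSF9 did not pass the filter on low values in MAD and was not tested there. The list was then called higher in 6 of 92 tests and lower in 14 from NC to WG, in 9 and 9 of 91 from WG to WL and in 9 and 21 of 91 from NC to WL, and SLC36A2 stood at -2.16 (adjusted p = 0.0625) from NC to WL in ULB.

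For each gene the 3 PCGs most like it over the 236 samples were found by Pearson r of log2(TPM + 1). UCP2 was closest to TGFB1 (r = 0.916) and AKNA (0.902), PRDM16 to NOTCH1 (0.882), GSE1 (0.871) and LENG8 (0.870), and SLC6A8 to an unnamed gene (0.874), followed by PLBD2 (0.855) and SH3GL1 (0.855). An unnamed gene also stood between TGFB1 and AKNA for UCP2. ATP2A2 was closest to ELAVL1 (0.802), CKB to ALDOA (0.731) and MDH2 (0.718), and UCP3 to AKT2 (0.715), TMEM266 (0.710) and AIFM2 (0.707). GATM was closest to MAP3K21 (0.652), and PPARGC1A (TMEM72, 0.501) and DIO2 (an unnamed gene, 0.516) had the weakest partners. The points share libraries and groups, so these values describe likeness alone.

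From Hi-C of 240 samples a compartment score, the A-B index, was given over autosomal windows of 20 kb, with positive values in the open compartment A and negative ones in the closed compartment B. An index was read at the start of the 8 autosomal genes, and of UCP1 for comparison, while CKB (unplaced) and SLC6A8 (X chromosome) were not analysed here. CIDEA, ATP2A2, UCP2, UCP3, GATM, PRDM16 and UCP1 lay in compartment A in all 240 samples, PPARGC1A in 237 of 240, and DIO2 in compartment B in all 240. CIDEA (97253074 to 97268355 on chromosome 6, minus strand) and ATP2A2 had the highest group means, 4.12 to 4.59 and 3.75 to 4.58, and DIO2 the lowest, -4.82 to -3.31. DIO2 had a median of 1.5 TPM over all samples, while its start lay in a B bin. By the study's methods Hi-C was made from the upper layer that held the adipocytes, and no such step is described for RNA. The index and the TPM of a gene, here and below, need not come from the same cells.

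Between diets 7 of 96 tests of the index were called (adjusted p below 0.05 by limma and a difference above 0.75), where 7.15% of all bin tests were. Between depots 19 of 144 were called, against 11.4% of all. GATM, on chromosome 1, made 5 of the 7 diet calls. The other 2 were of PRDM16 (mean 1.31 to 2.41, adjusted p = 0.0114) and UCP2 (2.63 to 3.51, adjusted p = 0.00666) from NC to WL in GOM, and neither stayed called after quantile normalization. In RAD the index of GATM ran from 1.54 to 2.98 (median 2.05) in NC, from 1.65 to 4.42 (median 2.93) in WG and from 2.82 to 3.94 (median 3.43) in WL. In MAD it ran from 1.58 to 3.14 (median 2.11) in NC, from 1.57 to 4.27 (median 2.92) in WG and from 2.19 to 4.48 (median 3.53) in WL. NC was low in both depots, with overlap. The mean rose from NC to WG by 0.78 ± 0.20 in RAD (adjusted p = 0.00283) and 0.76 ± 0.18 in MAD (adjusted p = 0.00151), and from NC to WL by 1.26 ± 0.18 in RAD (adjusted p = 9.76e-06), 1.23 ± 0.23 in MAD (adjusted p = 0.000355) and 0.82 ± 0.25 in ULB (adjusted p = 0.0340). The median of all bins also differed between diets, by up to 0.285 (RAD, NC to WL), and after quantile normalization between samples the changes from NC to WL in RAD (0.90) and MAD (0.88) stayed called while the other 3 did not. From NC to WG in RAD, where the index of GATM rose, its expression changed by -0.52 (adjusted p = 0.00581, under the fold limit). Its expression was not called from NC to WL in any depot.

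PRDM16 (chromosome 6, 64704181 to 65012580, plus strand) had the most depot calls. Its index in GOM ran from 0.731 to 2.32 (median 1.33) in NC, against 1.5 to 3.48 (median 2.64) in MAD and 2.5 to 4.34 (median 3.23) in RAD, and from 2.19 to 3.61 (median 3.32) over the 5 ULB samples. GOM was the low depot, and every NC RAD sample was above every NC GOM sample. Relative to GOM the index of PRDM16 was higher in NC by 1.3 ± 0.24 for MAD, 1.91 ± 0.23 for RAD and 1.83 ± 0.29 for ULB, in WG by 0.97 ± 0.12, 1.28 ± 0.13 and 1.13 ± 0.12, and in WL by 0.90 ± 0.25, 1.05 ± 0.24 and 1.16 ± 0.29 (adjusted p from 1.83e-14 to 0.0106), and all 9 stayed called after quantile normalization. Its expression could be tested between depots only in WL, and no pair was called there (differences of -0.51 to 0.30, adjusted p from 0.147 to 0.877). UCP3 had a higher index in NC RAD and ULB than in NC GOM (means 3.78, 4.01 and 2.89; 0.90 ± 0.20, adjusted p = 0.00141, and 1.13 ± 0.19, adjusted p = 0.000712), the pairs of depots in which its TPM was also higher. In WG and WL the index of UCP3 was not called between depots, although its TPM was. DIO2 was further into compartment B in GOM than in ULB in NC (-4.82 against -3.31, 1.51 ± 0.32, adjusted p = 0.00318), and its expression did not differ detectably between these (0.37 ± 0.45, adjusted p = 0.549). PPARGC1A had a lower index in NC ULB than in NC GOM (0.74 against 1.77, -1.03 ± 0.25, adjusted p = 0.00683).

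**Figure D4:**
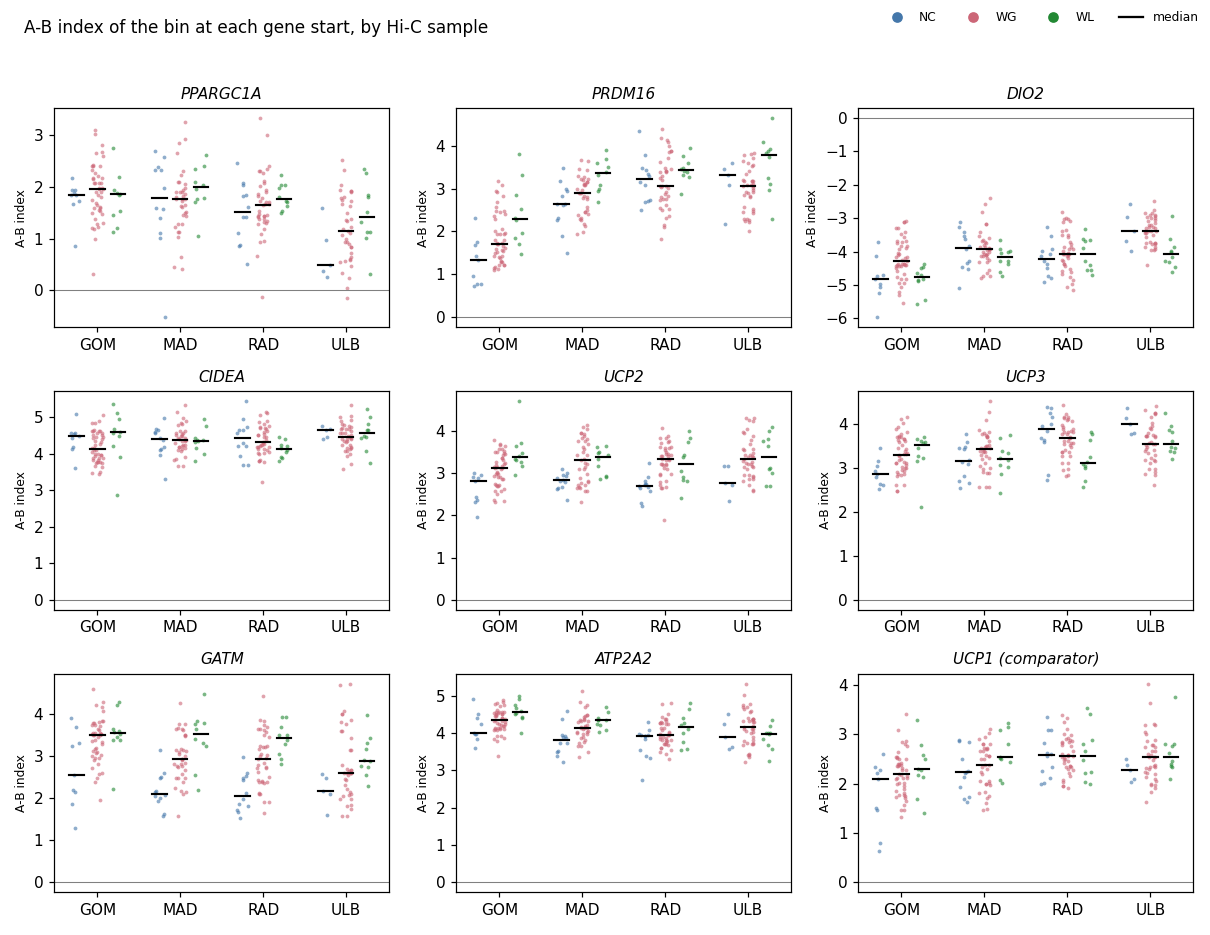
A-B index of the bin at the start of 8 genes, and of UCP1 as comparator, in every Hi-C sample, by depot and coloured by diet, with a line at the group median and a grey line at 0. PRDM16 is low in GOM, GATM rises from NC to WL in MAD and RAD, and all DIO2 points lie below -2.39.

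The acetylated histone H3K27ac marks active enhancers, and the authors deposited 18 tables of ranked enhancer regions, 4 of NC, 10 of numbered WG subgroups and 4 of WL. The study sorted WG samples by estimated cell composition before it pooled Hi-C reads, and it pooled NC and WL whole. The labels do not say that the numbered subgroups are these. Each table pools samples, so it gives a description without replicates, and the X chromosome is not in them. A region lay within 10 kb of CIDEA in all 18 tables, and in 10 of them it was a super-enhancer, a class that held 1.98% to 6.79% of the regions of a table. CIDEA, a lipid droplet protein that marks brown fat in rodents but is also made in white fat of other species, had the strongest regions of the 8 autosomal genes, with a median rank in the top 5.70%. Its best was rank 353 in NC ULB (top 1.80%, chr6:97226400-97335399), and all 4 WL tables held a super-enhancer there, against 3 of 4 in NC and 3 of 10 in WG. The NC ULB region reaches past CIDEA on both sides, so it need not belong to this gene alone. Super-enhancers made up 5.62% to 6.53% of all regions in the WL tables, 4.51% to 5.84% in NC and 1.98% to 6.79% in WG. A difference between diets at CIDEA was not tested. ATP2A2 followed with a median in the top 10.8%, and UCP3 and UCP2 with 17.8% each. The latter share regions, among them one super-enhancer in NC RAD (rank 991, chr9:8348200-8419599). GATM had a region in 13 of 18 tables, PRDM16 and PPARGC1A in all 18 with weaker medians (31.96% and 52.8%), and DIO2 only in 2, both of NC (ranks in the top 74.0% and 75.9%). UCP1 had a region in 16 of 18 tables with a median at 70.8%, so the region of the broken gene ranked below those of each autosomal member other than DIO2. The window covered the whole gene and 10 kb on each side. PPARGC1A spans 686110 bases and PRDM16 308400, against 16738 for GATM and 4135 for UCP1. Longer windows have more room for a region, and the share over all genes was not counted.

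**Figure D5:**
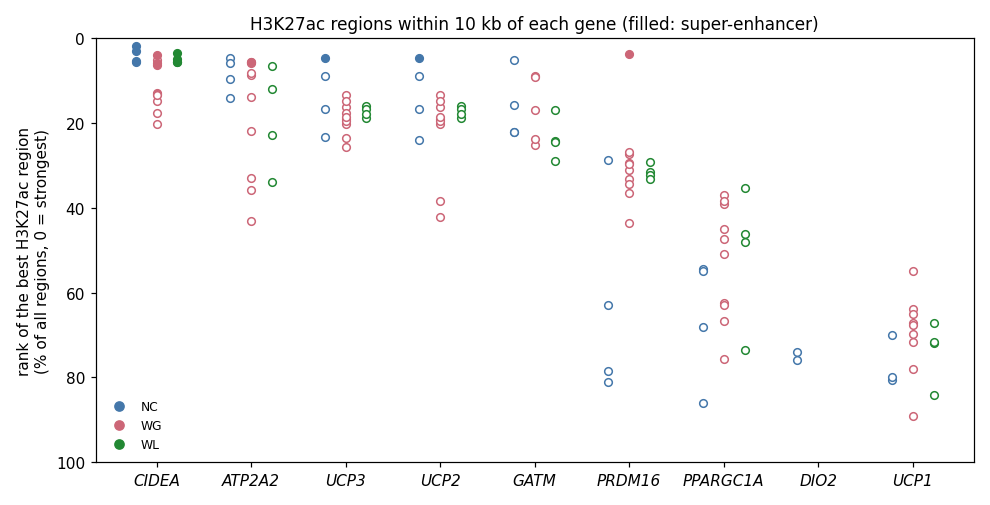
Rank of the best H3K27ac region within 10 kb of each gene as a percent of all regions of a table (0 is the strongest, axis inverted), 1 point per table, filled where the region was a super-enhancer. CIDEA holds the top with a median of 5.70%, and DIO2 and UCP1 lie at the bottom.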

How the data were processed

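RNA-seq measured 236 adipose samples in 12 diet-by-depot groups, Hi-C measured 240, and H3K27ac ChIP-seq was pooled over replicates. The authors made rRNA-depleted stranded paired-end libraries, quantified them with kallisto 0.43.0 on Sscrofa11.1 transcripts and summed them to genes with tximport, and they deposited estimated counts and TPM per gene. The A-B index, a score deposited by the authors per bin of 20 kb, came from Hi-C maps normalized by Knight-Ruiz balancing and quantile normalization. For the enhancer tables the authors mapped reads with BWA 0.7.15, called peaks with SICER and ranked stitched regions by ROSE, with regions near a gene start left out, and the deposited signal is the H3K27ac signal of a region. Groups and numbers came from the labels, and 9 columns of the expression tables that match no sample were not used.

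Estimated counts were rounded and tested by edgeR 4.0.16 (quasi-likelihood, TMM) in R 4.3.3, in each pair of groups alone, on 13346 to 14440 genes with over 0.5 TPM in 80% or more of either group. The difference of a change between depots was tested in 1 fit over 12 groups on 15068 genes. The A-B index was tested with limma 3.58.1 on 113298 bins. Called means a Benjamini-Hochberg adjusted p below 0.05 over all features tested, with a fold above 1.5 or an index difference above 0.75. The tests were tested on simulated data. Estimated counts per library of 3337098 to 22939420 limit the precision of PRDM16, DIO2 and PPARGC1A most. Promoters and gene positions came from RefSeq, Sscrofa11.1, and 14821 gene IDs had a symbol.

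The genes, the pathway lists and the marker lists were chosen with earlier results of these data known. The named genes are all members, and from each pathway list those with the largest called changes. Alternatives were another normalization, DESeq2 1.42.0, edgeR's exact test, limma on log2(TPM + 1) and log2(TPM + 0.1), no filter, a replicate block, a covariate for the share of TPM on PCGs, and left-out libraries. Between diets the block joins different pigs that share a number, and it keeps only the numbers found in both groups. A call between diets that was lost under the block alone is thus not weakened by it. The removals of libraries rich in another tissue's markers or with few counts were chosen after seeing the data.

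Samples with the same number in 2 groups were checked for shared deviations. Every pair correlated above 0.1 only between MAD and ULB of WG (30 pairs, lowest r = 0.259) and between MAD and RAD of WL (10 pairs, lowest r = 0.230), so numbers were taken as pairs there alone. In the other depot pairs of WG, 35 of 36, 37 of 39, 37 of 38, 30 of 31 and 32 of 33 pairs passed 0.1. The median r per depot pair was 0.566 to 0.642 there, against -0.0875 to -0.0249 between samples of different numbers. Samples of the same number were thus alike there too, and the main tests between depots did not use this.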

Additional observations from a re-analysis of the deposited data

Results flagged for a closer look

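In each group of 4 to 10 samples the gap of the highest or lowest sample to its neighbour was set against the group's range (Dixon's limit). A little over 100 such groups were tested and 7 passed, where chance passes about 1 in 20, or about 5, so the number is near that of chance. Among the TPM values these were PPARGC1A in WL RAD replicate 3 (2.32 TPM, the next sample 1.14 TPM), SLC6A8 in WL ULB replicate 7 (9.22 TPM, the next 15.8 TPM) and ATP2A2 in NC GOM replicate 5 (82.8 TPM, the next 52.6 TPM). Among the A-B index values they were PPARGC1A in NC GOM replicate 10 (0.866, the next 1.68), UCP2 in WL GOM replicate 9 (4.72, the next 3.72), UCP3 in WL GOM replicate 9 (2.11, the next 3.16) and GATM in WL GOM replicate 10 (2.22, the next 3.39). The changes of 2 genes differed between depots by the interaction test in edgeR, CKB from NC to WG (adjusted p = 0.0411) and DIO2 from WG to WL (adjusted p = 0.00519). Neither passed without the 43 libraries rich in another tissue's markers (adjusted p = 0.239 and 1.00).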

How the results depend on the processing

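Of the 57 calls of members in expression, 16 held under every alternative run, among them CKB from WG to WL in RAD and ULB, PPARGC1A from NC to WL in GOM and UCP3 from GOM to ULB in all 3 diets. Calls higher and lower from NC to WG numbered 4 and 2. Without libraries under 90% of TPM on PCGs, which leaves 2 NC GOM, 2 WL GOM and 3 WL MAD libraries, they were 1 and 0, with the replicate block 0 and 0, without the libraries rich in another tissue's markers 2 higher, with limma at either pseudocount 1 lower, and with no fold limit 5 lower. From WG to WL (4 and 5) they were 1 and 2 without libraries under 90%, and 2 higher with the block. From NC to WL (2 and 9) they were 1 and 4 without libraries under 90%, 0 and 5 with the block, 0 higher with the covariate and without the tissue-rich libraries, 4 higher with limma at a pseudocount of 0.1, and 5 lower with limma at either. Leaving out each NC ULB sample gave 1 to 2 lower calls from NC to WG. Without libraries under 90%, depot calls went from 10 to 3 in NC and from 13 to 4 in WL, and with no fold limit from 8 to 13 in WG. Genes differing between depots (1 for each change) were 2 with the covariate (NC to WG), 2 with the block for each, and 0 without the tissue-rich libraries. Diet calls of the A-B index went from 7 to 16 at a limit of 0.5 and to 3 after quantile normalization. DIO2 from WG to WL in MAD turned from 1.21 to -0.84 without libraries under 90% and to -0.70 without the tissue-rich ones, and UCP2 from MAD to RAD in WL turned from -1.58 to 0.0611 without libraries under 90%. Beyond the fewer samples that removals leave, the cause was not tested. The replicate block ended 22 of the 57 calls, mostly where the numbers were not taken as pairs. Between diets it joined different pigs, so its losses and its counts above are no check of a diet call. Beside those named above, calls lost under 5 or 6 alternatives were SLC6A8 from GOM to MAD and CKB from MAD to RAD in NC, PPARGC1A from MAD to RAD in WG and WL, and DIO2 from MAD to ULB in WL, and GATM from GOM to ULB in WL was lost under 8. PRDM16 was testable in few comparisons because it seldom passed the filter on TPM.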
